A study of Mus musculus with 24 samples.

Results

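The genes described here are 10 genes of the cardiac mesoderm programme, out of 22926 gene symbols counted in WT mouse embryonic stem cell (ESC) clones and in clones mutant for Tet genes, whose products oxidize 5-methylcytosine in DNA. They are the transcription factors *Hand1*, *Hand2*, *Tbx20*, *Isl1*, *Nkx2-5*, *Mef2c* and *Prdm6*, the potassium channel gene *Kcnj5* and the contractile genes *Tnnt2* and *Myl7*. *Prdm6*, *Hand2* and *Kcnj5* were picked because they were near absent in the *Tet2*-/- libraries at D6, so their levels in WT and *Tet2*-/- at D6 are a description and carry no test. The choice had no numeric threshold. The other 7 were listed as genes of the same programme, and all tests against WT or *Tet2*-/- at D6 concern those 7.

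Cells were 129/SVj mouse ESCs with eGFP knocked into *Pou5f1* (the Oct4 gene), and 1 clone of that line was the parent of every clone, so all groups share the reporter. CRISPR indels gave *Tet1*-/-, *Tet2*-/-, DKO (*Tet1* and *Tet2*) and TKO (*Tet1*, *Tet2* and *Tet3*) clones. Libraries were made of polyadenylated RNA from undifferentiated cells (D0) and after 6 days without leukemia inhibitory factor (D6), the cytokine that maintains pluripotency, in cells grown on gelatin. Each day had 3 libraries each of WT and *Tet1*-/- and 2 each of *Tet2*-/-, DKO and TKO, every library from 1 clone, and 11 clones were labelled at both days. Clones are named as in the labels, DKO_5.12 being written without its point at D6. Values of a genotype at D6 are given in the order O4.1, O4.13 and O4.2 for WT, Tet1_KO_2.1, Tet1_KO_2.2 and Tet1_KO_2.4 for *Tet1*-/-, Tet2_KO_3.10 and Tet2_KO_3.11 for *Tet2*-/-, DKO_5.11 and DKO_5.12 for DKO, and TKO_8.12 and TKO_8.4 for TKO.

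Libraries held 21729346 to 37290208 counts at D0 and 18400463 to 34219640 at D6. Levels are counts normalized to library size (CPM), and 3 counts equalled 0.0814 to 0.151 CPM. At D6 clones of WT, of *Tet1*-/- and of TKO stood far apart for the genes described here. The summed level of the 7 genes not picked was 48.8 to 253 CPM in WT, 17.5 to 96.4 in *Tet1*-/- and 12.2 to 41.4 in TKO, whereas the clones of DKO (15.1 to 20.6) and of *Tet2*-/- (6.36 to 7.39) differed less among themselves. Indels need not lower RNA, so the Tet transcripts check the labels only weakly. *Tet2* RNA was 20.9 to 23.2 CPM in *Tet2*-/- and 87.9 to 93.9 in WT at D0, and 15.9 to 16.6 against 12.3 to 16.0 at D6. *Tet1* RNA at D0 was 567 CPM in clone TKO_8.4, 41.7 in clone TKO_8.12 and 93.4 to 358 in *Tet1*-/-, against 220 to 431 in WT, so not every targeted gene had less RNA.

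The heart forms from mesoderm that leaves the primitive streak and switches on a network of transcription factors. HAND1 and HAND2 are basic helix-loop-helix factors that bind E-box sequences, ISL1 marks progenitors of the second heart field, and TBX20, NKX2-5 and MEF2C act with GATA4 to turn on contractile genes. HAND1 is also a factor of trophoblast and extraembryonic mesoderm, PRDM6 is known from smooth muscle, and ISL1 and MEF2C work in neurons too. In bulk RNA a lower level can mean fewer cells of a type or less RNA per cell, and these cannot be told apart.

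Upstream sequences are shown for *Hand2*, which names the group, for *Tbx20*, 1 of the 7 genes not picked, for *Kcnj5*, picked like *Hand2*, and for *Myl7*, which did not rise at D6. Each is the 250 bases before the RefSeq start (build GRCm38.p6), 5′ to 3′ on the strand of the gene. Capitals mark AGATAA or TGATAA, letters that GATA factors bind, and CATCTG, an E-box, on either strand. 8 of the 10 members had an entry, *Hand1* and *Prdm6* being the others. The windows are chr8:57320733-57320982 for *Hand2* (plus strand), chr9:24774304-24774553 for *Tbx20*, chr9:32344345-32344594 for *Kcnj5* and chr11:5898783-5899032 for *Myl7* (all minus strand).
Hand2: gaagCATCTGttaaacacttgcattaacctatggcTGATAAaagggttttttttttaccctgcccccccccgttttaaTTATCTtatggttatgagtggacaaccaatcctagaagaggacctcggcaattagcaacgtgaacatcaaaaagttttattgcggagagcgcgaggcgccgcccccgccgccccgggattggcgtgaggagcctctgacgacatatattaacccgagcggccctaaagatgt
Tbx20: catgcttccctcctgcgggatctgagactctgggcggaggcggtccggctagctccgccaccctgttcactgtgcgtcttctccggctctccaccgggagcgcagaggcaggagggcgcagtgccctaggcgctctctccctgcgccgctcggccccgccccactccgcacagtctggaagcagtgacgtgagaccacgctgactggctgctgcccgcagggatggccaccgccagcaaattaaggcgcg
Kcnj5: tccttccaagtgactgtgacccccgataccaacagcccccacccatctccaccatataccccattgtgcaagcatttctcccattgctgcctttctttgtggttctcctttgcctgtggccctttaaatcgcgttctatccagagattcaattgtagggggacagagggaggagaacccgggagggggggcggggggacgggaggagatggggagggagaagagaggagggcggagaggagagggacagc
Myl7: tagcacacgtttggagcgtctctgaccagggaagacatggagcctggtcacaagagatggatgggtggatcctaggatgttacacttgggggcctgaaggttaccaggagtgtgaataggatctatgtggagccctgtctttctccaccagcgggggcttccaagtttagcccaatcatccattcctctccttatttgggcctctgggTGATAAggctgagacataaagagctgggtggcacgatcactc

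The *Hand2* window held 1 AGATAA, 1 TGATAA and 1 CATCTG, that of *Myl7* held 1 TGATAA, and those of *Tbx20* and *Kcnj5* held none of these. Among 32851 such windows of the mouse genome, 9.99% held AGATAA, 7.94% TGATAA and 14.4% CATCTG. CpG dinucleotides numbered 15 in *Hand2*, 22 in *Tbx20*, 7 in *Kcnj5* and 4 in *Myl7*, against a median of 6 over all windows. A match of letters is a description of the window and not a measured binding site.

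After 6 days without LIF, 5 of the 7 genes not picked on *Tet2*-/- were higher in WT than at D0, and so were 5 of 7 in *Tet1*-/-. In *Tet2*-/- only *Mef2c* was called higher, in DKO only *Hand1*, and in TKO *Hand1*, *Isl1* and *Tnnt2*. Genes were called where the adjusted p was below 0.05 and the change exceeded 2-fold. *Mef2c*, *Isl1*, *Tnnt2* and the 3 picked genes were too low at D0 to pass the filter on counts there and entered this fit through D6 libraries, so the filter favoured a call higher at D6 for them and these counts are a description. Of all 15639 genes tested, 20.7% were called higher at D6 in WT and 19.9% in *Tet1*-/-, against 12.7% for *Tet2*-/-, 18.6% for DKO and 16.8% for TKO. The median log2 fold change of the 7 genes was 3.95 in WT and 3.44 in *Tet1*-/-, against 0.66 for *Tet2*-/-, 1.89 for DKO and 2.58 for TKO, with medians over all genes between -0.01 and 0.01. *Nkx2-5* was not called in any genotype and *Myl7* was not called higher in any, so the programme the label names was present in part.

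**Figure D1:**
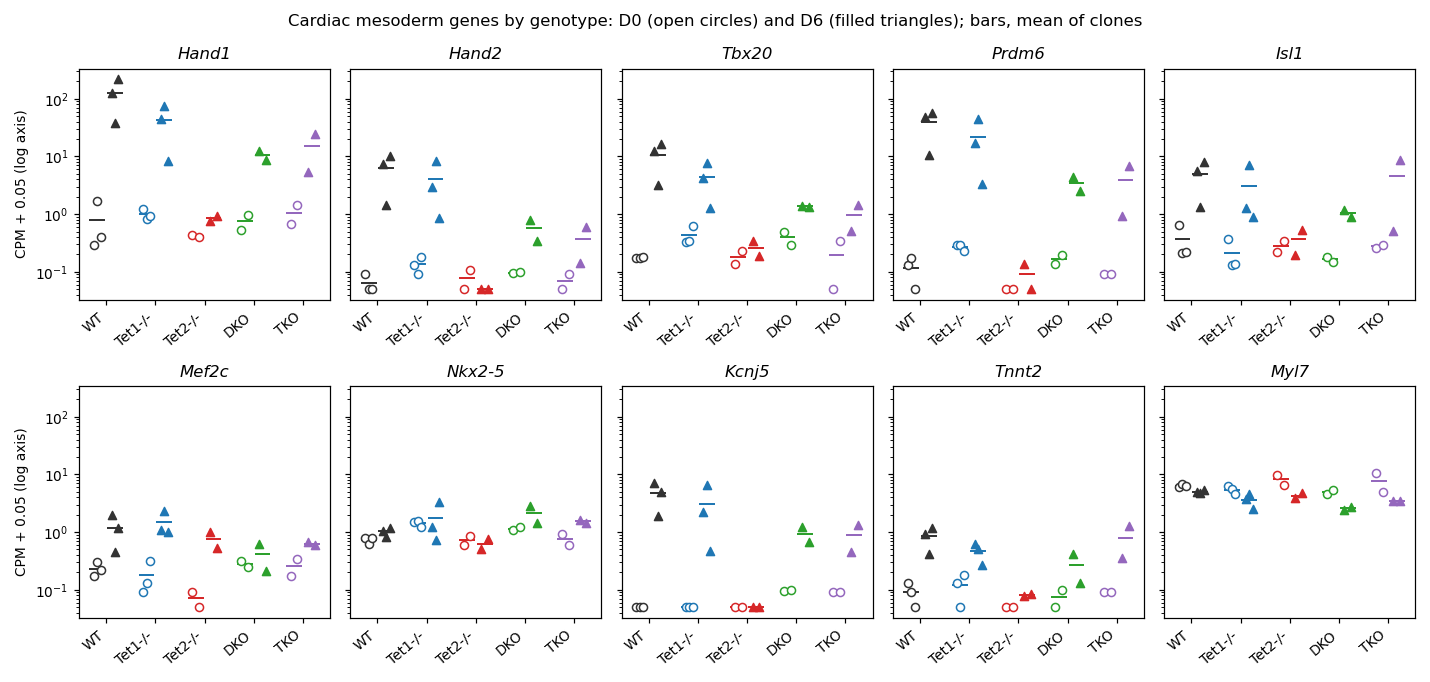
Level of each of the 10 genes in CPM plus 0.05 on a log axis, by genotype, with D0 libraries as open circles, D6 libraries as filled triangles and bars at the mean of the clones. *Hand1*, *Hand2*, *Tbx20*, *Prdm6* and *Kcnj5* rise at D6 in WT and stay at or below 0.872 CPM in both *Tet2*-/- clones, whereas *Myl7* lies between 2.33 and 10.6 CPM in every library.

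*Hand1* (mm9 chr11:57642207-57646320, minus strand) was at 0.242 to 1.65 CPM in all D0 libraries. At D6 it stood at 123.8 CPM in WT clone O4.1, 219.9 in O4.13 and 38.2 in O4.2, and at 44.9, 73.8 and 8.43 in *Tet1*-/- clones Tet1_KO_2.1, Tet1_KO_2.2 and Tet1_KO_2.4. The *Tet2*-/- clones Tet2_KO_3.10 and Tet2_KO_3.11 had 0.720 and 0.872 CPM, DKO clones DKO_5.11 and DKO_5.12 had 12.2 and 8.60, and TKO clones TKO_8.12 and TKO_8.4 had 24.96 and 5.29. Both *Tet2*-/- clones were thus within the range of the D0 libraries, and DKO and TKO clones lay between them and every WT clone. The log2 fold change from D0 to D6 was 7.41 (SE 0.90) in WT, 5.49 (SE 0.84) in *Tet1*-/-, 3.87 (SE 1.07) in DKO and 3.87 (SE 1.00) in TKO, all called. In *Tet2*-/- it was 1.11 (SE 1.38, edgeR adjusted p = 0.552). Leaving out the D0 library of clone DKO_5.11 raised the adjusted p in DKO to 0.0528, and leaving out the D6 library of clone TKO_8.12 gave 2.395 in TKO with an adjusted p of 0.0831.

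Against WT at D6, *Hand1* was lower in *Tet2*-/- with a log2 fold change of -7.33 (SE 1.27, edgeR adjusted p = 0.00556). From high to low, WT had a mean of 127.3 CPM ± 90.9 (SD, n = 3), *Tet1*-/- 42.3 ± 32.7 (n = 3), TKO 15.1 ± 13.9 (n = 2), DKO 10.4 ± 2.51 (n = 2) and *Tet2*-/- 0.796 ± 0.107 (n = 2). Neighbours in this order overlapped, except that both *Tet2*-/- clones lay below all others. The rise from D0 to D6 was smaller in *Tet2*-/- than in WT, with a log2 difference of -6.30 (SE 1.94, edgeR adjusted p = 0.0347).

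*Hand2* (mm9 chr8:59799780-59803314, plus strand) had 0 to 3 counts in each D0 library. At D6 the WT clones had 7.31, 10.1 and 1.42 CPM, and the *Tet1*-/- clones had 2.87, 8.18 and 0.821. Both *Tet2*-/- libraries had 0 counts, while DKO clones had 0.756 and 0.298 CPM and TKO clones had 0.549 and 0.0923, the last from 3 counts. WT was at least 65.8-fold above *Tet2*-/- at a floor of 3 counts per library, *Tet1*-/- at least 41.4-fold, DKO at least 5.52-fold and TKO at least 3.36-fold. These folds are a description, since the absence in *Tet2*-/- chose the gene. Within the limit of the filter given above, *Hand2* rose from D0 to D6 in *Tet1*-/- by 5.49 on the log2 scale (SE 1.01, edgeR adjusted p = 0.000143). It had log2 fold changes of 3.35 (SE 1.62, edgeR adjusted p = 0.0869) in DKO and 3.52 (SE 2.03, edgeR adjusted p = 0.156) in TKO. DKO had 2 counts at D0 and a D6 to D0 ratio of 11.3 (95% counting interval 3.12 to 93.2), and TKO had 1 count and a ratio of 15.5 (2.77 to 611). The intervals cover counting error in the D0 libraries only.

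*Tbx20* (mm9 chr9:24527648-24578746, minus strand) encodes a T-box factor of heart progenitors and was at or below 0.573 CPM in all D0 libraries. At D6 it reached 12.6, 16.4 and 3.19 CPM in WT clones and 4.27, 7.64 and 1.23 in *Tet1*-/- clones. *Tet2*-/- clones had 0.288 and 0.139 CPM, DKO clones 1.31 and 1.303, and TKO clones 1.40 and 0.461. All clones of *Tet2*-/-, DKO and TKO lay below all WT clones. The gene rose from D0 by 6.37 (SE 0.83) in WT and 3.52 (SE 0.71) in *Tet1*-/- on the log2 scale. In *Tet2*-/- the log2 fold change was 0.66 (SE 1.23, edgeR adjusted p = 0.699), in DKO 1.89 (SE 0.92, adjusted p = 0.0871) and in TKO 2.58 (SE 1.09, adjusted p = 0.0571). At D6 the log2 fold change of *Tet2*-/- against WT was -5.60 (SE 1.03, edgeR adjusted p = 0.00620). With 10 and 4 counts in *Tet2*-/- *Tbx20* entered the D6 fit through groups where it is higher, which favoured this call, so the value is a description. The rise from D0 was smaller than in WT with a log2 difference of -5.72 (SE 1.71, edgeR adjusted p = 0.0310). This difference rests on the same few counts in *Tet2*-/-, with 2 and 6 at D0, so it is a description too.

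The tables held 3 transcript rows for *Tbx20*, and the first was used. At D6 it held 23.0% to 33.3% of the counts of the third, which was at 12.9 to 55.9 CPM in WT and 0.593 to 0.864 CPM in *Tet2*-/-. The order of WT above and *Tet2*-/- below was thus seen in the more abundant row too.

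*Prdm6* (mm9 chr18:53624200-53735561, plus strand), a PR domain factor, had 0 to 6 counts in each D0 library. At D6 it was at 48.5, 57.4 and 10.7 CPM in WT clones and at 16.9, 44.2 and 3.22 in *Tet1*-/- clones. DKO clones had 4.40 and 2.44 CPM, TKO clones had 6.84 and 0.861, and *Tet2*-/- had 3 counts in clone Tet2_KO_3.10 and 0 in clone Tet2_KO_3.11. The WT to *Tet2*-/- ratio was 821 (95% counting interval of the 3 counts, 281 to 3983), a description only. With the filter limit given above, *Prdm6* rose from D0 by 6.57 (SE 1.04) in *Tet1*-/-, 4.81 (SE 1.48, edgeR adjusted p = 0.0106) in DKO and 6.33 (SE 1.71, edgeR adjusted p = 0.00522) in TKO on the log2 scale. TKO had 2 counts at D0 and a ratio of 92.8 (95% counting interval 25.7 to 766). The call in DKO was lost without either DKO library of D0 (adjusted p = 0.0732 and 0.0542), and that in TKO without the D6 library of clone TKO_8.12 (4.25, adjusted p = 0.110).

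*Isl1* (mm9 chr13:117088478-117099896, minus strand) had its highest D6 level in clone TKO_8.12 and a low level in the other TKO clone. At D6 clone TKO_8.12 had 8.49 CPM, above every WT clone (5.60, 8.05 and 1.27), and clone TKO_8.4 had 0.461. *Tet1*-/- clones had 1.25, 6.997 and 0.852 CPM, DKO clones 1.12 and 0.841, and *Tet2*-/- clones 0.144 and 0.488. *Isl1* rose from D0 in WT (log2 fold change 3.95, SE 1.00), in *Tet1*-/- (4.15, SE 1.10) and in TKO (4.23, SE 1.28, edgeR adjusted p = 0.0103). Without the D6 library of clone TKO_8.12 the TKO value was 1.02 (adjusted p = 0.589), and without either TKO library of D0 the adjusted p was 0.0596 or 0.0589. Against WT at D6 the log2 fold change of *Tet2*-/- was -4.01 (SE 1.42, edgeR adjusted p = 0.0551), which missed the threshold, whereas DESeq2 called it lower.

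*Mef2c* (mm9 chr13:83643033-83806684, plus strand), a MADS-box factor of muscle, had a different pattern. At D6 its levels were 1.92, 1.11 and 0.399 CPM in WT clones, 1.02, 2.28 and 0.947 in *Tet1*-/- clones, and 0.950 and 0.488 in *Tet2*-/- clones. DKO clones had 0.559 and 0.163, and TKO clones had 0.549 and 0.615. The *Tet2*-/- clones thus lay within the range of WT, and log2 fold changes against WT were between -1.65 in DKO and 0.32 in *Tet1*-/-, with none called. *Mef2c* rose from D0 by 2.61 (SE 0.66) in WT, 3.44 (SE 0.69) in *Tet1*-/- and 5.04 (SE 1.16, edgeR adjusted p = 0.00219) in *Tet2*-/- on the log2 scale. *Tet2*-/- had 1 count of *Mef2c* at D0, and its D6 to D0 ratio of 41.5 has a 95% counting interval of 7.44 to 1638. The difference of the change between *Tet2*-/- and WT was 2.44 (SE 1.52, edgeR adjusted p = 0.275).

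*Nkx2-5* (mm9 chr17:26975609-26978510, minus strand), a homeobox factor of cardiac progenitors, was at 0.536 to 1.52 CPM at D0 and at 0.461 to 3.31 CPM at D6. At D6 the WT clones had 1.01, 1.15 and 0.762 CPM and *Tet2*-/- clones had 0.461 and 0.697. The highest levels were in clone Tet1_KO_2.4 (3.31 CPM) and clone DKO_5.11 (2.79 CPM), both with *Hand1* below every WT clone. *Tet1*-/- clones Tet1_KO_2.1 and Tet1_KO_2.2 had 1.16 and 0.678 CPM, clone DKO_5.12 had 1.41 and TKO clones had 1.40 and 1.60. No contrast of *Nkx2-5* was called by edgeR, whereas DESeq2 called it higher in DKO than in *Tet2*-/- at D6.

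*Kcnj5* (mm9 chr9:32122368-32151822, minus strand) encodes a subunit of the atrial inward rectifier potassium channel and had 0 counts in all WT, *Tet1*-/- and *Tet2*-/- libraries at D0 and 1 count in each DKO and TKO library. At D6 it was at 7.16, 4.90 and 1.81 CPM in WT clones, and at 2.15, 6.50 and 0.410 in *Tet1*-/- clones. DKO clones had 1.15 and 0.624 CPM, TKO clones had 1.298 and 0.400, and both *Tet2*-/- libraries had 0 counts. As a description, WT was at least 48.4-fold above *Tet2*-/- at the floor of 3 counts per library. *Tet1*-/- was at least 24.2-fold higher at D6 than at D0 by the same floor, a description too, since the gene passed the filter through D6 libraries. D6 to D0 ratios were 19.0 (95% counting interval 5.26 to 157) in DKO and 20.5 (5.66 to 169) in TKO, with edgeR adjusted p of 0.0428 and 0.0479. These 2 calls were close to the threshold and were lost without any of 6 libraries in DKO and any of 9 in TKO. The partner subunit gene *Kcnj3* was not called at D6 in *Tet2*-/- against WT (log2 fold change 0.64, SE 0.34), with 47.2 to 54.2 CPM in *Tet2*-/- and 29.1 to 37.2 in WT.

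*Tnnt2* (mm9 chr1:137737452-137748837, plus strand), cardiac troponin T, stayed at or below 1.20 CPM in every library. At D6 WT clones had 0.857, 1.15 and 0.363 CPM, *Tet1*-/- clones had 0.580, 0.464 and 0.221, and *Tet2*-/- had 1 count in each library, as few as the picked genes. DKO clones had 0.361 and 0.0814 CPM, and TKO clones had 1.20 and 0.308, so the highest level was in clone TKO_8.12, as for *Isl1*. The gene rose from D0 by 4.11 (SE 0.89) in WT, 2.53 (SE 0.85, edgeR adjusted p = 0.0154) in *Tet1*-/- and 3.97 (SE 1.10, edgeR adjusted p = 0.00628) in TKO on the log2 scale. The *Tet1*-/- call was lost with the clone as a block (1.85, adjusted p = 0.0948), without the D0 library of clone Tet1_KO_2.3 (0.0661) or without the D6 library of clone Tet1_KO_2.1 (0.0527), and the TKO call without the D6 library of clone TKO_8.12 (2.78, 0.0878). WT had 3 counts at D0 and TKO 2, which gave D6 to D0 ratios of 19.0 (95% counting interval 6.50 to 92.1) and 18.1 (5.02 to 150). Against WT at D6 *Tet2*-/- had a log2 fold change of -4.49 (SE 1.06, edgeR adjusted p = 0.0136). With 1 count in each *Tet2*-/- library the gene entered the D6 fit through the groups where it is higher, which favoured this call, so it is given as a description. The ratio of WT to *Tet2*-/-, which rests on 2 counts, was 25.01 with a 95% counting interval of 6.92 to 206.

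*Myl7* (mm9 chr11:5796640-5798785, minus strand), the atrial myosin light chain, was present before LIF was withdrawn. It had 4.44 to 10.6 CPM at D0 and 2.33 to 5.38 CPM at D6. At D6 the WT clones had 4.89, 5.38 and 4.65 CPM, the *Tet1*-/- clones had 3.74, 4.57 and 2.49, and the *Tet2*-/- clones had 3.77 and 4.67. DKO clones had 2.33 and 2.71, and TKO clones had 3.39 and 3.44. From D0 to D6 *Myl7* fell in TKO (log2 fold change -1.18, SE 0.32, edgeR adjusted p = 0.00494), where 8.63% of all genes were called lower. Without the D0 library of clone TKO_8.4 the value was -0.52 (adjusted p = 0.196). Changes from D0 were between -0.95 and -0.35 in the other genotypes and were not called.

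**Figure D2:**
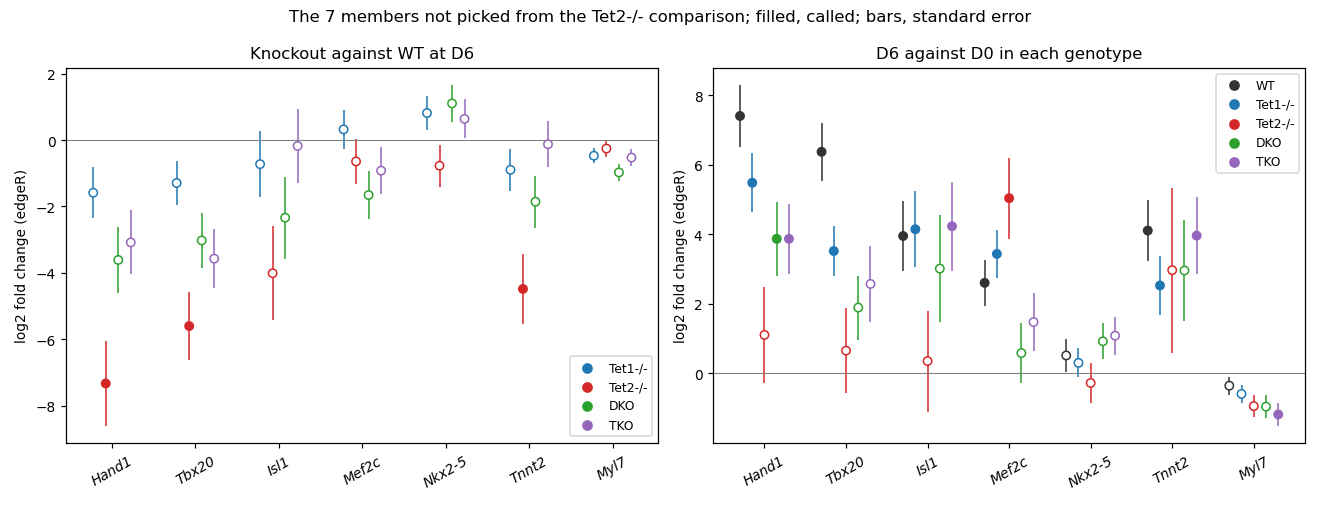
Log2 fold changes from edgeR for the 7 genes not picked on *Tet2*-/-, with standard errors as bars and called genes as filled points. The left panel sets each knockout against WT at D6, where the filled points in *Tet2*-/- are *Hand1* (-7.33) and, as descriptions because they passed the filter on counts through other groups, *Tbx20* (-5.60) and *Tnnt2* (-4.49), and the right panel sets D6 against D0 within each genotype.

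Set against WT at D6, 3 of the 7 genes met the criteria for lower in *Tet2*-/-, *Hand1*, *Tbx20* and *Tnnt2*, and 9.45% of all 15435 genes tested did. DESeq2 called 4, these and *Isl1*, and 9.88% of all genes. *Tbx20*, *Isl1* and *Tnnt2* had too few counts in *Tet2*-/- to pass the filter through that group, which leaves *Hand1* as the 1 call of edgeR without this limit, so both counts are descriptions. Over all genes 398 of the 1459 called lower had the same limit. In a fit with no filter edgeR gave adjusted p of 0.00153 for *Hand1*, 0.00202 for *Tbx20* and 0.00862 for *Tnnt2*. Log2 fold changes of the 7 ranged from -7.33 to -0.25 with a median of -4.01, beside a median of -0.03 over all genes. Without clone Tet2_KO_3.10 or without clone Tet2_KO_3.11, 0 of the 7 were called, with log2 fold changes of *Hand1* of -7.20 and -7.47 and adjusted p of 0.0604 and 0.0745, and 181 and 0 genes were then called lower in the whole table. The numbers refer to edgeR fits in which the remaining clone is assumed to vary like the other groups.

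In *Tet1*-/-, DKO and TKO against WT at D6 edgeR called 0 of the 7 genes and 0% of all genes tested in each. At an unadjusted p under 0.05 and more than 2-fold, 0 of the 7 passed in *Tet1*-/-, 4 as lower in DKO and 2 as lower in TKO. Over all genes 162 (1.05%) were lower and 235 higher for *Tet1*-/-, 400 (2.59%) lower and 396 higher for DKO, and 498 (3.23%) lower and 505 higher for TKO. DESeq2 called 0 of the 7 in *Tet1*-/- beside 0.285% of all genes, *Hand1* and *Tbx20* lower in DKO beside 0.557%, and both of these lower in TKO beside 1.9%. By edgeR the log2 fold change of *Hand1* was -1.59 (SE 0.76, adjusted p = 0.413) for *Tet1*-/-, -3.61 (SE 0.99, adjusted p = 0.203) for DKO and -3.08 (SE 0.96, adjusted p = 0.105) for TKO. For *Tbx20* they were -1.29 (SE 0.66), -3.02 (SE 0.84) and -3.57 (SE 0.89). All libraries lay below all WT libraries for 5 of the 7 genes in *Tet2*-/- (31.6% of all genes tested), 5 in DKO (18.6%), 3 in TKO (19.2%) and 1 in *Tet1*-/- (7.33%). The 5 in *Tet2*-/- were *Hand1*, *Tbx20*, *Isl1*, *Tnnt2* and *Nkx2-5*. The 5 in DKO were *Hand1*, *Tbx20*, *Isl1*, *Tnnt2* and *Myl7*, the 3 in TKO were *Hand1*, *Tbx20* and *Myl7*, and the 1 in *Tet1*-/- was *Myl7*.

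**Figure D3:**
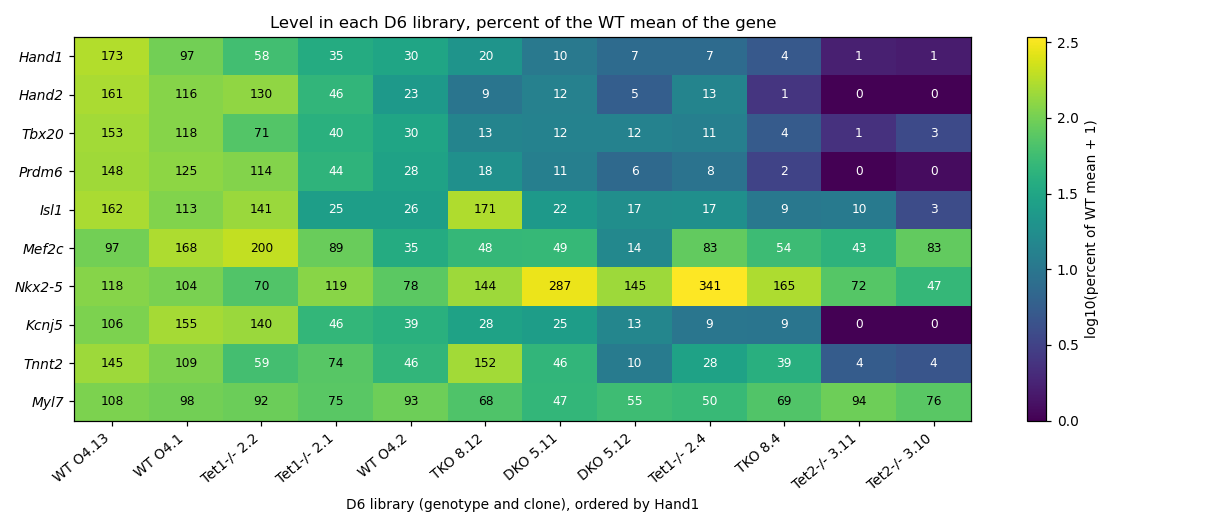
Level of each gene in each D6 library as a percent of the WT mean of that gene, with libraries ordered by *Hand1* from left to right and colour on a log10 scale of percent plus 1. *Hand1* stands at 0.625% of the WT mean in *Tet2*-/- on average, 8.15% in DKO, 11.9% in TKO and 33.3% in *Tet1*-/-, and WT clone O4.2 lies to the right of *Tet1*-/- clones Tet1_KO_2.2 and Tet1_KO_2.1.

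DKO and TKO clones lack *Tet2* as well, so they were set against *Tet2*-/- at D6 to ask whether the 7 genes stood at the same level. *Hand1* was higher than in *Tet2*-/- by 5.75 (SE 1.20, edgeR adjusted p = 0.0190) in *Tet1*-/- and by 4.25 (SE 1.20, edgeR adjusted p = 0.0403) in TKO on the log2 scale. In DKO the log2 difference was 3.72 (SE 1.19, edgeR adjusted p = 0.0578). With the limit of the filter given above, *Tbx20* had a log2 difference of 4.31 in *Tet1*-/- (SE 1.00, edgeR adjusted p = 0.0260) and *Tnnt2* had a log2 difference of 4.36 in TKO (SE 1.12, edgeR adjusted p = 0.0298), a ratio of 23.9 to the 2 counts in *Tet2*-/- (95% counting interval 6.61 to 197). Beside 4.48% of all genes tested, 2 of the 7 were called higher in *Tet1*-/-, beside 6.01% 2 were in TKO, and beside 6.37% 0 were in DKO, where 3 of the 7 and 10% of all genes (1546) passed as higher at an unadjusted p under 0.05 and more than 2-fold. DESeq2 called 3 (*Hand1*, *Tbx20* and *Nkx2-5*) higher in DKO than in *Tet2*-/-, beside 7.48% of all genes. The 2 in *Tet1*-/- became 0 without clone Tet1_KO_2.1 or either *Tet2*-/- clone and 1 without clone Tet1_KO_2.2. The 2 in TKO became 0 without clone TKO_8.12 or either *Tet2*-/- clone, and 1 without either DKO clone, clone Tet1_KO_2.1 or WT clone O4.1. For DKO the 0 became 2 without clone Tet1_KO_2.2 or Tet1_KO_2.4 and 1 without either TKO clone or WT clone O4.2. These comparisons share the *Tet2*-/- libraries. Within DKO and TKO the 3 picked genes were above 0 in every library at D6.

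Whether the change from D0 to D6 differed from that in WT was tested directly. In *Tet2*-/- 2 of the 7 genes, *Hand1* and *Tbx20*, rose less, beside 5.13% of all genes. *Tbx20* had 2 and 6 counts at D0 and 10 and 4 at D6 in *Tet2*-/-. It entered this fit through groups where it is higher, so its value is a description. The 2 became 0 without either *Tet2*-/- library of either day or without the D0 library of WT clone O4.13, and 1 without the D0 library of WT clone O4.2 or the D6 library of WT clone O4.13. In *Tet1*-/- and DKO 0 of 7 and 0% of all genes differed in either direction, and in TKO 0 of 7 beside 3.58%. At an unadjusted p under 0.05 and more than 2-fold, 1 of the 7 passed as lower in *Tet1*-/-, 2 in DKO and 2 in TKO, beside 1.2%, 1.79% and 4.5% of all genes that passed as lower. DESeq2 called 0 of the 7 in *Tet1*-/- and in DKO, beside 0.0767% and 0.128% of all genes in either direction, and *Tbx20* lower in TKO, beside 2.6%. For *Tbx20* the difference was -4.48 (SE 1.36, adjusted p = 0.438) in DKO and -3.80 (SE 1.64, adjusted p = 0.169) in TKO by edgeR.

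Counts of members called within a genotype rested on few clones in DKO and TKO. In DKO the 1 gene called higher at D6 became 3 with the clone as a block, 0 without the D0 library of clone DKO_5.11 and 2 without the D6 library of clone DKO_5.12. In TKO the 3 became 0 without the D6 library of clone TKO_8.12 and 5 without that of clone Tet1_KO_2.4. Within the limit of the filter given above, all 3 picked genes were called higher at D6 in *Tet1*-/-, whereas for DKO and TKO these were *Prdm6* and *Kcnj5*. The 2 in DKO became 0 without either DKO library of D0, and those in TKO became 0 without the D6 library of clone TKO_8.12.

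Before LIF withdrawal 4 members had enough counts to be tested, *Hand1*, *Tbx20*, *Nkx2-5* and *Myl7*, and 0 were called in any knockout against WT by edgeR or DESeq2. At an unadjusted p under 0.05 and more than 2-fold, *Nkx2-5* and *Tbx20* passed as higher in *Tet1*-/-, beside 0.816% of all genes (118 higher, with 130 lower), and none of the 4 did in the other knockouts. With 3 counts in each WT library, *Tbx20* entered the D0 fit through groups where it is higher. The filter favoured its result, which is a description. Genes called in either direction at D0 were 0.00692% of all 14456 tested for *Tet1*-/- and 0.0346% for DKO, against 3.19% for *Tet2*-/- and 3.15% for TKO, and by DESeq2 0.346%, 0.768%, 3.47% and 3.38% in the same order. *Nkx2-5* had the smallest unadjusted p, with a log2 fold change of 1.01 (SE 0.28, edgeR adjusted p = 0.170) in *Tet1*-/- against WT. *Hand1* in *Tet2*-/- stood at 0.384 and 0.351 CPM in clones Tet2_KO_3.10 and Tet2_KO_3.11 at D0, within the WT values of 0.242, 1.65 and 0.345 in O4.1, O4.2 and O4.13.

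Levels of *Hand2*, as log2(CPM + 0.5) over the 12 D6 libraries, were compared with those of 13112 genes with a mean of at least 1 CPM. The 5 genes most like it were *Zfpm1* (Pearson's r 0.990), a cofactor of GATA factors, *Gata4* (0.986), a zinc finger factor of the heart, *Man1c1* (0.985), a mannosidase, *Plxna4* (0.984), a semaphorin receptor, and *Smad6* (0.983), an inhibitor of BMP signalling. Without the *Tet2*-/- libraries r was 0.979 to 0.986 over 10 libraries. Near absence in *Tet2*-/- chose *Hand2*, *Prdm6* and *Kcnj5*, so their likeness over 12 libraries is in part set by the choice. Over the 10 libraries without *Tet2*-/-, a set chosen after the values were seen, the 5 highest were *Apcdd1*, *Glis1*, *Zfpm1*, *Vstm2b* and *Nrp1* (r 0.985 to 0.991), *Zfpm1* alone being shared with the 5 above. Among the members *Tbx20* was then 16th of the 13112 (r 0.976), *Prdm6* 19th, *Kcnj5* 85th, *Hand1* 101st (r 0.941), *Myl7* 1134th, *Isl1* 1643rd and *Nkx2-5* 10848th. Of the member pairs, *Hand1* and *Tbx20* had r of 0.973 over the 10 libraries without *Tet2*-/-, and *Nkx2-5* had r between -0.843 and -0.310 with each of the others. Over all 12 libraries its r was -0.770 with *Myl7* and between -0.220 and 0.104 with the other members. The points share the difference between genotypes and between clones, and the values are a description.

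*Gata4* itself was at 91.9, 84.0 and 20.4 CPM in WT clones, at 40.9, 77.4 and 16.3 in *Tet1*-/- clones, and at 5.18 and 5.96 in *Tet2*-/- clones. DKO clones had 17.7 and 10.5 CPM and TKO clones had 9.98 and 4.52. Clone TKO_8.4 was below both *Tet2*-/- clones.

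Other genes of the heart programme were read from lists. Of 31 cardiac regulators tested, 16 were lower and 0 higher in *Tet2*-/- than in WT at D6, with a median log2 fold change of -1.90. Over all genes 9.45% were called lower and 4.81% higher, and every list below is from this comparison unless another is named. Of the 16, 8 had too few counts in *Tet2*-/- to pass the filter through that group, so the count and the exact folds of such genes are a description. The lowest log2 fold changes were those of *Bmp2*, a ligand of heart induction (-7.18, SE 1.47), *Tbx2*, a T-box repressor (-6.76, SE 1.296), *Pdgfra*, a receptor of early mesoderm (-6.68, SE 1.22), and *Mesp1*, the factor of the first cardiac mesoderm (-6.60, SE 1.47). They rest on few counts in the 2 *Tet2*-/- libraries, 12 and 5 for *Bmp2*, 4 and 2 for *Tbx2*, 27 and 10 for *Pdgfra* and 12 and 3 for *Mesp1*. *Mesp1* was at 9.0 to 34.9 CPM in WT and 0.105 to 0.345 in *Tet2*-/-. *Tbx5* (-4.64, SE 1.23) and *Gata4* (-3.57, SE 0.78) were lower, whereas the *Mef2c* paralogs *Mef2a* (-0.35, SE 0.15), *Mef2b* (0.29, SE 0.23) and *Mef2d* (-0.63, SE 0.11) were not called. From D0 to D6 23 of 31 regulators were called higher in WT and 23 in *Tet1*-/-, against 18 for DKO, 9 for TKO and 8 for *Tet2*-/-, where all genes gave 20.7%, 19.9%, 18.6%, 16.8% and 12.7% in that order. Only 22 regulators passed the filter at D0, so the rest of the 31 entered this fit through D6 libraries. The filter favoured a call higher at D6 for them, and these counts are a description. Regulators called lower from D0 to D6 were 2 in WT, 4 in *Tet2*-/- and 3 in each of the others. The change from D0 to D6 was called lower than in WT for 6 of the 31 in *Tet2*-/-, beside 5.13% of all genes, and for 6 in TKO, beside 1.74%, against 0 in *Tet1*-/- and in DKO, where 0% of all genes were called. The filter limits these counts in the same way. The summed level of the list at D6 was 522 to 1145 CPM in WT and 453 to 1182 in *Tet1*-/-, against 447 to 488 for DKO, 342 to 478 for TKO and 368 to 411 for *Tet2*-/-.

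Of 22 contractile and calcium handling genes tested, 8 were lower and 1 higher in *Tet2*-/- against WT at D6, with a median of -0.65, beside 9.45% of all genes lower and 4.81% higher. The lowest log2 fold changes were those of *Tnni1* (-4.48, SE 0.95), a troponin I, *Myl3* (-3.93, SE 0.99), a ventricular light chain, *Tnnc1* (-3.82, SE 0.85), troponin C, and *Myl4* (-3.68, SE 0.68), an atrial light chain. Of the 8, 3 had the limit of the filter. *Myl4* was already lower in *Tet2*-/- at D0 (-4.26, SE 0.71, edgeR adjusted p = 0.00856), at 0.0584 to 0.0853 CPM against 0.606 to 2.16 in WT. Each *Tet2*-/- library of D0 held fewer than 3 counts of *Myl4*. The gene thus entered the D0 fit through groups where it is higher, which favoured this call, so the value is a description. *Myl2* was the other contractile gene called lower at D0 (-1.80, SE 0.43), beside 2.37% of all genes. Which other D0 calls have this limit was not counted. The change of *Myl4* from D0 to D6 in *Tet2*-/- differed from that in WT by 0.58 (SE 1.09, edgeR adjusted p = 0.751), a value that rests on the same few counts at D0. *Casq2*, the calsequestrin of cardiac muscle, was the gene that was higher (2.71, SE 0.51), at 1.32 to 1.92 CPM in *Tet2*-/- and 0.202 to 0.290 in WT. It had too few counts in WT to pass the filter through that group, which favoured this call, so the value is a description. Of 10 ion channel genes tested, *Cacna1c* was lower (-2.44, SE 0.68) and *Kcnh2* higher (1.14, SE 0.22). Without clone Tet2_KO_3.10 the 16 regulators, 8 contractile genes and 1 channel gene called lower became 1, 1 and 0, and without clone Tet2_KO_3.11 they became 0, 0 and 0. The channel call was lost without WT clone O4.1 or O4.13 too. Channel genes called lower were 2 with library totals, without clone Tet1_KO_2.2 or without WT clone O4.2. *Casq2* lost its call without clone Tet2_KO_3.11, and *Kcnh2* without either *Tet2*-/- clone.

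Markers of other cells moved in the same comparison, where 1 of the 9 streak, 2 of the 4 trophoblast, 1 of the 2 endoderm and the skeletal muscle calls had the limit of the filter. Of 12 genes of the primitive streak and early mesoderm, 9 were lower in *Tet2*-/-, led by *Lhx1* (-6.63, SE 1.00), *Cer1* (-5.85, SE 1.00), *Evx1* (-5.33, SE 1.07) and *Mixl1* (-3.94, SE 0.87), and their summed level was 209.6 to 243 CPM against 468 to 1086 in WT. Trophoblast genes, read because *Hand1* is also one of that lineage, were lower in 4 of 7, namely *Cdx2* (-4.74, SE 1.19), *Plac1* (-4.31, SE 1.14), *Krt7* (-2.43, SE 0.35) and *Elf5*, which had 0 counts in *Tet2*-/-, as *Prl3d1* had in both groups. The sums were 38.7 to 41.0 CPM against 90.6 to 94.8 in WT. Of 4 trophoblast genes tested at D0, 2 were already lower in *Tet2*-/- and 0 higher, beside 2.37% and 0.816% of all genes. Whether the filter favoured these D0 calls was not counted. The change from D0 to D6 was called different from that in WT for 0 of 7, beside 5.13% of all genes lower and 3.54% higher. Smooth muscle genes were lower in 3 of 6 (*Lmod1* -2.96, *Acta2* -2.18, *Tagln* -1.77), with sums of 144 to 152 CPM against 299.9 to 458 in WT. Endoderm genes were lower in 2 of 6 (*Sox17* -7.06, *Foxa2* -2.52), with sums of 17.2 to 21.9 CPM against 44.9 to 139 in WT and *Ttr* at 0 in *Tet2*-/-. *Flt1* (-2.70) was lower among 4 endothelial genes and *Pax7* (-3.90) among 3 of skeletal muscle, whose sums were 64.3 to 67.3 and 0.802 to 0.921 CPM against 70.6 to 97.7 and 1.63 to 2.77 in WT. Without clone Tet2_KO_3.10 the 9 streak, 4 trophoblast, 3 smooth muscle and 2 endoderm calls became 4, 1, 1 and 0, that of skeletal muscle became 0 and that of endothelium stayed at 1, and without clone Tet2_KO_3.11 all became 0. Endoderm calls were also 1 without WT clone O4.1, and 3 with library totals, with no filter or with the replicate block. Skeletal muscle calls were 0 with a filter of 1 CPM in 2 libraries and 2 with the groups compared alone. Endothelial calls were 2 without WT clone O4.2. The part of these cell types in the lower *Hand1*, *Tbx20* and *Tnnt2* was not tested.

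Neuronal and pluripotency genes differed the other way in part. *Tubb3*, a neuronal tubulin (3.1, SE 0.60), and *Elavl3*, a neuronal RNA-binding protein (2.18, SE 0.47), were higher in *Tet2*-/- among 6 neuronal genes, with sums of 147 to 161 CPM against 27.0 to 55.7 in WT. Neuronal sums at D0 were 243 to 293 CPM in *Tet2*-/- and 142 to 231 in WT, so they fell by D6 in both. Of 4 neuronal genes tested at D0, 0 were higher in *Tet2*-/- and 1 lower, beside 0.816% and 2.37% of all genes. The change from D0 to D6 was called higher than in WT for 1 of 6 and lower for 0, beside 3.54% and 5.13% of all genes. Of 8 pluripotency genes, *Pou5f1* was higher (1.18, SE 0.27) at 489 to 575 CPM against 207 to 268 in WT, and *Dppa3* was lower (-2.83, SE 0.91), with sums of 2486 to 2654 against 1014 to 1907 CPM. The call of *Dppa3* was lost with the replicate block, and without either *Tet2*-/- clone, either DKO clone or WT clone O4.2 or O4.13. Those of *Tubb3*, *Elavl3* and *Pou5f1* were lost without either *Tet2*-/- clone, and pluripotency genes called higher were 3 with DESeq2, with no filter or with the block, and up to 5 without WT clone O4.2. Their part in the levels of the cardiac genes was not tested either.

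**Figure D4:**
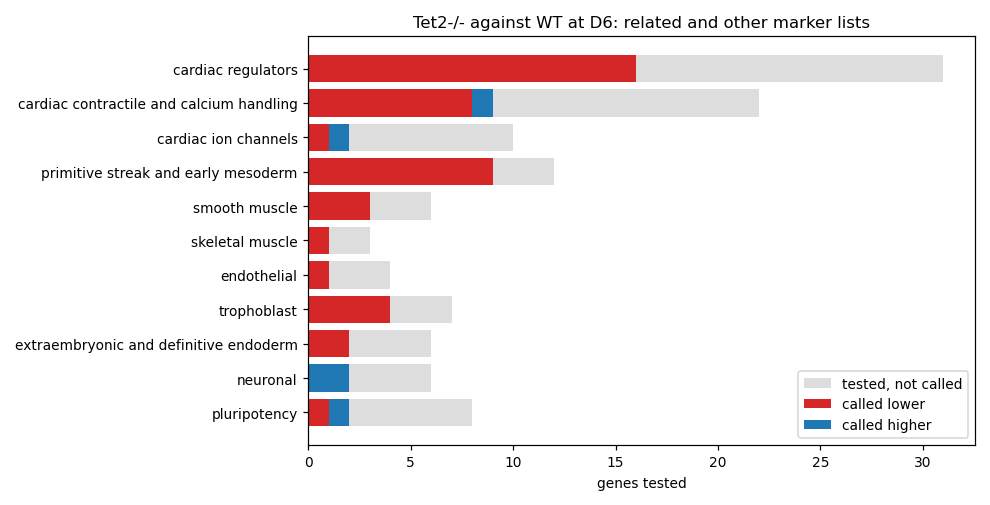
Number of genes tested in each list (grey bars) with those called lower (red) and higher (blue) in *Tet2*-/- against WT at D6. Cardiac regulators have 16 of 31 called lower and primitive streak genes 9 of 12, whereas neuronal genes have 2 of 6 called higher and 0 lower.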

How the data were processed

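RNA-seq of 24 libraries (12 at D0, 12 at D6) was read from a table of each day. Per the labels and methods, the authors mapped paired-end reads to mm9 with STAR 2.5.1 and deposited counts per RefSeq transcript in whole numbers that were neither normalized nor pooled. ERCC spike-ins were added, but no spike-in rows were used here. The tables are labelled as output of featureCounts, whose settings, the use of strand among them, are not given in the sources used here, so reads of overlapping or antisense transcripts, such as one beside *Hand2*, cannot be told apart. DESeq2 is among the tools the labels name.

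The days have separate tables, and a change with the day cannot be told apart from any difference in how the tables were made. Each has 31928 rows for 22926 symbols, and the first row of a symbol was used. The rows of *Tbx20* (3), *Mef2c* (2) and *Tnnt2* (9) overlap and may share reads. Counts were fitted in R 4.3.3 with edgeR 4.0.16 (filterByExpr with a minimum count of 10, TMM, quasi-likelihood test, 1 coefficient per group), separately for D0 (14456 genes), D6 (15435) and all libraries (15639). Standard errors were the log2 fold change divided by the root of F. P-values were adjusted by Benjamini-Hochberg over all genes of a fit. CPM come from 1 TMM scaling over all libraries. P-values measure the spread between clones, each library being 1 clone. The counting intervals are exact Poisson intervals at 95%, and they and the floor of 3 counts cover counting error only. The model scripts were tested on simulated data.

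The members and lists were chosen with earlier results of these data known. The genes named are every member, the partners and paralogs, at most 4 genes called per list and direction in *Tet2*-/- against WT at D6, *Tet1*, *Tet2* and *Tet3*, and the 5 genes most like *Hand2*. *Hand2os1* of the regulators was not analysed here. Clones are paired across days because the labels name the same clone. Deviations of the same clone from its group means correlated at 0.0771 to 0.188 over 11 clones, 9 of them over 0.1. The DKO clone written without a point at D6 was read as DKO_5.12. Alternatives were other scalings, filters and tests (DESeq2 1.42.0), the sum of all rows of a symbol, a replicate or clone block, fits of the groups compared alone, and leaving out each library. Coordinates are from GENCODE vM1 (NCBIM37, the same assembly as mm9) and upstream sequences from RefSeq on GRCm38.p6. Figures were drawn with matplotlib.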

Additional observations from a re-analysis of the deposited data

Results flagged for a closer look

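The change of *Hand1* from D0 to D6 differed between *Tet2*-/- and WT by -6.30 on the log2 scale, a difference tested directly by an interaction contrast of edgeR (adjusted p = 0.0347). The same contrast gave -5.72 for *Tbx20* (adjusted p = 0.0310). *Tbx20* had few counts in *Tet2*-/- and passed the filter through groups where it is higher, so its value is a description. Both values kept their sign in all 31 alternatives tried for each, with adjusted p between 0.000114 and 0.151 for *Hand1* and between 0.000274 and 0.271 for *Tbx20*. The part of the other cell types whose markers moved was not tested.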

How the results depend on the processing

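Each count was recomputed under 592 alternatives over 23 counts, of which 530 gave the same count or one within 1.5 times, and log2 fold changes of single genes under 914 alternatives over 32 values, of which 850 kept their side of the threshold, 64 lost the call and 0 changed sign. With DESeq2, 2 of the 7 genes were called in DKO and 2 in TKO against WT at D6 (0 by edgeR), 3 were higher in DKO than in *Tet2*-/- at D6 (0), 3 were higher at D6 than D0 in DKO (1) and 1 differed in its change between TKO and WT (0). The sum of all rows of a symbol gave 3 higher at D6 in DKO and 1 difference of change in TKO. Without a filter 1 gene, and with the groups compared alone 4 genes, were higher in DKO than in *Tet2*-/- at D6. The 2 genes higher in TKO than in *Tet2*-/- became 1 with those groups alone and 1 with the replicate block at D6. With the clone as replicate block 3 genes were higher at D6 in DKO, and no other count of members moved past 1.5 times.

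Replicate numbers do not pair clones within a day (correlations of deviations -0.0607 to 0.294 at D0, 11 of 21 over 0.1, and -0.358 to 0.297 at D6, 7 of 21). Leaving out 1 library gave 0 to 4 genes called in *Tet2*-/- against WT at D6, 0 to 2 in TKO against WT at D6 and 0 to 1 in *Tet1*-/- against WT at D0, the 1 without either TKO library of D0. It gave 0 to 3 genes higher in *Tet1*-/- than in *Tet2*-/- at D6, 0 to 2 in DKO and 0 to 3 in TKO. It gave 0 to 2 differences of change in *Tet2*-/- and 0 to 1 in TKO, 0 to 2 genes higher at D6 in DKO and 0 to 5 in TKO, and for the 3 picked genes 0 to 3 in DKO and 0 to 2 in TKO. Genes lower in *Tet2*-/- than in WT at D6 numbered 1459 in the whole table, 1026 without WT clone O4.1 and 942 without O4.13. The cause was not tested. Members with 0 to 3 counts in a group have folds that the depth limits to a bound or a wide interval.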
